A study of Mus musculus with 5 samples.

Results

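The voltage-gated channel loci were 33 genes that encode sodium, calcium, potassium and hyperpolarization-activated (HCN) channel subunits, each taken with its gene span and 50 kb on either side. They were chosen by gene name out of 21938 protein-coding genes, by a rule that used no score or number of peaks, but with earlier results of these data known. The data were ChIP-Seq peak lists for NEUROD2 from the cerebral cortex of BALB/c mouse embryos (E14.5), with 1 library for each of 3 NEUROD2 antibodies. The antibodies were a mouse antibody (ab1) and a pair of rabbit antibodies (ab2 and ab3), and ab2 and ab3 were set against the same rabbit GFP precipitation as background. The labels name no treatment and no mutation, cortices of several embryos were pooled for each precipitation, and there was no second condition. The GFP libraries entered only as the peak caller's background, so every value below is a NEUROD2 value over GFP.

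Voltage-gated channels are membrane pores that open or close with the membrane potential. Sodium channels start the action potential, potassium channels end it and set the spacing of spikes, calcium channels couple depolarization to transmitter release and gene expression, and HCN channels carry an inward current at rest. NEUROD2 is a basic helix-loop-helix (bHLH) transcription factor of postmitotic excitatory neurons that binds E-boxes, DNA elements of the form CANNTG, as a dimer with an E protein. In pooled cortex, binding in fewer cells and weaker binding in each cell cannot be told apart.

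In the deposited lists ab1 had 51841 peaks, ab2 had 35310 and ab3 had 7470. A peak's score is the log10 of its p-value from the peak caller, multiplied by -10. The lowest score kept was 50, and the scores of ab1 and ab2 reached 3100 in these loci. This value recurs, in 661 peaks of ab1 and 62 of ab2 over the genome, with 69 and 14 peaks above it, so that peaks at 3100 cannot be ranked among themselves. The Nhlh2 locus, the positive control of the study's PCR, held 8 shared regions including 1 at its promoter. The loci of the study's PCR non-targets, Gsx2, Dlx2, Npy, Gad1 and Calb2, held between 0 and 2 shared regions each and none at a promoter. Calb2 held 1 region of all 3 antibodies, as did Nhlh2. Per 100 kb, Nhlh2 stood at 7.594, and Npy at 1.873 and Calb2 at 1.53 were near the channel median given below. With 1 library per antibody there is no replicate check within an antibody, so the spread given is over the 3 antibodies, and the 95% Wilson intervals cover counting error only.

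Overlapping peaks were merged into 376 regions over the 33 loci, and no region fell in more than 1 locus. Of these, 220 held peaks of at least 2 antibodies and are called shared regions. All 220 held ab1 and ab2, and 49 of them held ab3 as well. The remaining 156 regions came from 1 antibody, 136 from ab1, 19 from ab2 and 1 from ab3. The share of shared regions with all 3 antibodies was 22.27% in the channel loci and 22.19% over all 32261 shared regions of the genome. Since ab3 gave the shortest list, leaving out ab1 or ab2 reduced the shared regions of the loci to 49.

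**Figure D1:**
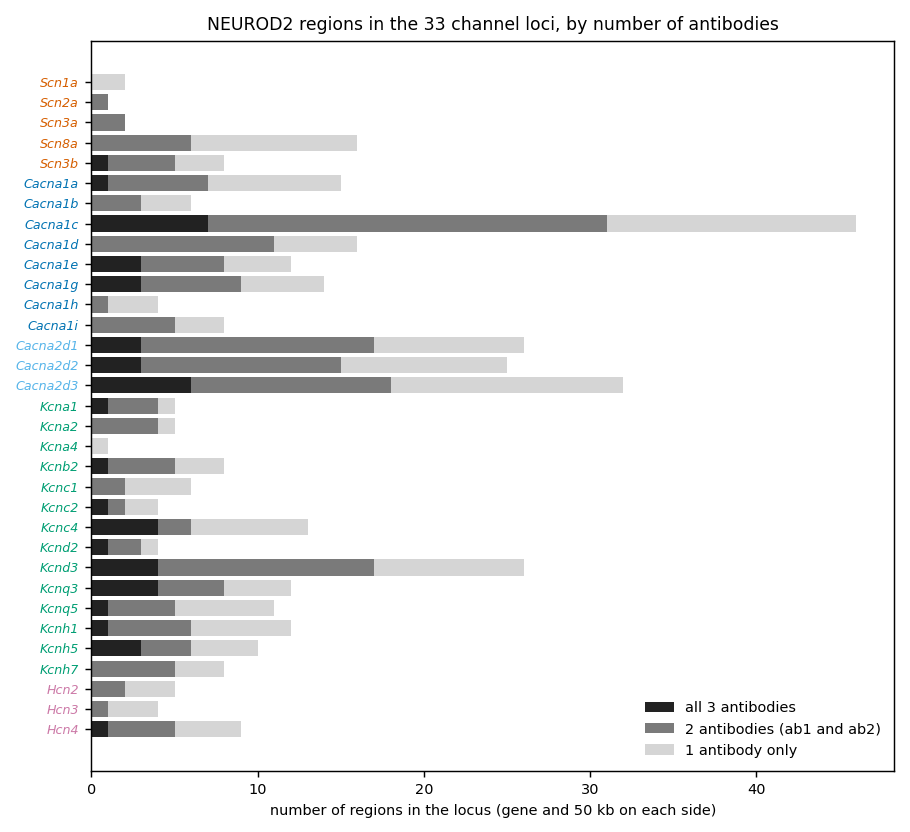
Number of merged NEUROD2 regions in each of the 33 channel loci (vertical axis, gene names coloured by family), split by how many antibodies gave a peak. Cacna1c had the longest bar with 46 regions, 31 of them shared, while Scn1a and Kcna4 had no shared region.

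The sequences at the centre of the highest region of all 3 antibodies in each channel family are given here because they show which E-boxes lay under binding that every antibody found. Each is 200 bases of the plus strand of GRCm38 (mm10), centred on the midpoint of the region of all 3 antibodies with the largest summed score in its family. Capitals mark the extended E-box, with the base that extends it. Its core is the form CAGCTG, the form CAGATG, its complement CATCTG, or the form CATATG, followed by G or T and read on both strands.
Cacna2d2 intron 2, in chr9:107456007-107457685: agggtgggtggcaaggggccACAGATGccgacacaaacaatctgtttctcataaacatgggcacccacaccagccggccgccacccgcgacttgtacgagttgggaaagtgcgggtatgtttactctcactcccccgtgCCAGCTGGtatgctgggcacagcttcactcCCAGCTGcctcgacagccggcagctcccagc
Kcnq3 intron 1, in chr15:66238761-66240454: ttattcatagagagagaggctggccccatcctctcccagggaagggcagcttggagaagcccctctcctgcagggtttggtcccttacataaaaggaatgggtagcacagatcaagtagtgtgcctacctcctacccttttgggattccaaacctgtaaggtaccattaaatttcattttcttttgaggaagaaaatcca
Cacna1c intron 3, in chr6:118966671-118967629: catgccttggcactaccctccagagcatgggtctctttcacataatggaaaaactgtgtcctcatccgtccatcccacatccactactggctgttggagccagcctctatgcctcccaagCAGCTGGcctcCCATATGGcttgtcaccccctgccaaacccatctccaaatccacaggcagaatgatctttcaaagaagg
Hcn4 intron 1, in chr9:58839072-58840498: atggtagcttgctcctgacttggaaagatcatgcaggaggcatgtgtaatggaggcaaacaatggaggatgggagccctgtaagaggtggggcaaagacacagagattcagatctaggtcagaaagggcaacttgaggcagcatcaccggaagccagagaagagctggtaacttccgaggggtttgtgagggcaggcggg
Scn3b upstream flank, in chr9:40235613-40236380: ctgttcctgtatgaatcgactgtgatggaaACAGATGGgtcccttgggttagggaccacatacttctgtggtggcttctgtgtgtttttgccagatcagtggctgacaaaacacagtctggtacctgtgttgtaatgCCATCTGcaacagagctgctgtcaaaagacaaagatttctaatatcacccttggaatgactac
The windows of Cacna2d2, Cacna1c and Scn3b held 3, 2 and 2 extended E-boxes. The windows of Kcnq3 and Hcn4 held none, although the whole regions held 4 and 5. The extended E-box nearest to the midpoint of both regions is shown in 60 bases, centred on it.
Kcnq3, 167 bp before the midpoint: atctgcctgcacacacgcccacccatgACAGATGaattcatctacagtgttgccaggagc
Hcn4, 124 bp after the midpoint: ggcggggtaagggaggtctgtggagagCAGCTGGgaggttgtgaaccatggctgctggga

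The 2 highest channel regions stood at the top of the genome-wide scale. The Cacna2d2 region, 57234 bp from the transcription start site (TSS), scored 3100 with ab1, 3100 with ab2 and 1064 with ab3. Here and below, the TSS of a gene is that of its longest transcript unless any annotated TSS is named. The Kcnq3 region, 47034 bp from the TSS, scored 3100, 3100 and 853 with the same antibodies. Both lay at percentile 99.9 of the summed score over all shared regions, and they were the only channel regions at or above percentile 99. Their ranks among regions at 3100 for both ab1 and ab2 rest on ab3 alone. At the other end, 25 of the 220 shared regions lay below percentile 10, and 22 lay at or above percentile 90. The median summed score was 430.5 in the channel loci and 420.9 over all shared regions.

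At least 1 shared region was found in 31 of the 33 loci, beside 67.6% of all protein-coding genes. A region of all 3 antibodies was found in 19 of them, beside 26.7% of all protein-coding genes. The channel genes are long, however, with a median span of 170.1 kb beside 17.16 kb for all protein-coding genes. Genes of like length were therefore set side by side. Among the 11 channel genes over 300 kb, 11 held a shared region and 9 a region of all 3 antibodies, beside 94.75% and 71.01% of protein-coding genes of that length. Among the 11 between 100 and 300 kb, the counts were 10 and 5, beside 87.73% and 48.99%. Among the 6 between 20 and 100 kb they were 6 and 4, beside 74.1% and 28.48%. Among the 5 under 20 kb they were 4 and 1, beside 59.01% and 19.98%.

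Per 100 kb of locus, the median over the 33 loci was 1.674 shared regions, beside 0.9499 over all protein-coding genes, and 24 of the 33 loci lay above the latter. By antibody, ab1 had a median of 3.348 peaks per 100 kb, ab2 of 2.072 and ab3 of 0.1904, a mean of 1.87 ± 1.588 (SD, n = 3 antibodies). Against the median of genes of like length, 7 of 11 channel genes over 300 kb, 6 of 11 between 100 and 300 kb, 5 of 6 between 20 and 100 kb and 3 of 5 under 20 kb were above it. Longer genes held more shared regions across the 33 genes (Pearson's r = 0.5658, Spearman's rho = 0.5464), as over all protein-coding genes (r = 0.5443, rho = 0.3067). These correlations are across genes, which are not independent replicates.

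**Figure D2:**
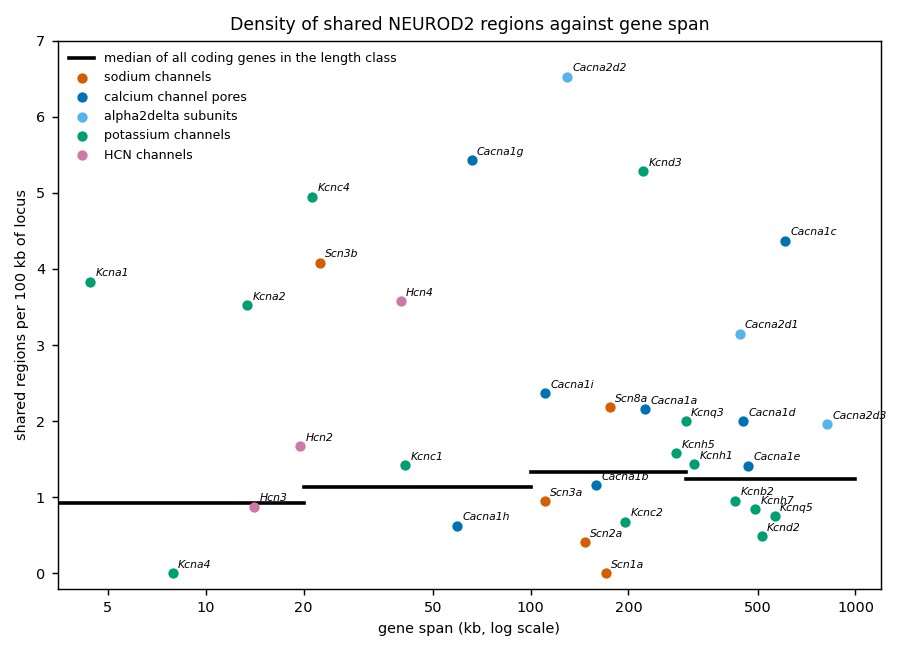
Shared regions per 100 kb of locus (vertical axis) against gene span in kb (horizontal axis, log scale) for the 33 channel genes, with the median of all protein-coding genes of each length class as black lines. Cacna2d2 stood highest at 6.529, and Scn1a and Kcna4 lay at 0.

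The densest loci were Cacna2d2 with 6.529 shared regions per 100 kb, Cacna1g with 5.428, Kcnd3 with 5.285, Kcnc4 with 4.948, Cacna1c with 4.372 and Scn3b with 4.085. These loci lay between percentiles 92.1 and 98.0 of all protein-coding genes. The 4 loci with most shared regions, Cacna1c, Cacna2d3, Cacna2d1 and Kcnd3, held 83 of the 220, or 37.73%. These counts depend on regions closest to another gene's TSS. Without those, Cacna1c fell from 31 to 1, Kcnc4 from 6 to 2 and Cacna1g from 9 to 3. Kcnd3 fell from 17 to 7 and Cacna2d2 from 15 to 10, while Scn3b kept 5. Cacna2d1 then held the most, with 15.

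Among the sodium channel genes, the densest binding was at the gene of an auxiliary subunit, and 4 of the 5 genes held shared regions, 14 in all. Scn3b, which encodes the beta3 subunit, held 5 shared regions in a locus with a gene span of 22.4 kb. Only 1 of them lay inside the gene, and the 2 downstream lay inside the neighbouring gene Gramd1b. All 5 had an extended E-box in the central 200 bp. The region 33220 bp upstream, printed above, scored 339 with ab1, 162 with ab2 and 53.7 with ab3 and was the only sodium channel region of all 3 antibodies. The region with the largest summed score, 38291 bp after the TSS inside the neighbouring gene Gramd1b, scored 483 with ab1 and 319 with ab2. The region with its midpoint 248 bp after the TSS covered the start of the gene itself. The region 1007 bp upstream ended just before that one began.

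Binding was sparser per 100 kb at the sodium pore genes. Scn8a, which encodes Nav1.6, held 6 shared regions, 4 upstream and 2 in intron 1, and the highest, 25016 bp upstream, scored 373 with ab1 and 392 with ab2. The Scn8a region 20699 bp upstream held 6 extended E-boxes in the central 200 bp, the most of any shared region of the channel loci, while it scored only 68.4 with ab1 and 91.9 with ab2. Scn3a, which encodes the embryonic channel Nav1.3, held 2, at 506 bp from the TSS (85.0 with ab1 and 55.8 with ab2) and in intron 19 (445 and 146). Scn2a, which encodes Nav1.2, held 1 in intron 11, at 68.4 with ab1 and 120.8 with ab2. Scn1a, which encodes Nav1.1, held none, and its 2 ab1-only peaks scored 76.1 in intron 1 and 180.7 in the downstream flank, 92 bp from the TSS of Ttc21b. No sodium pore gene held a region of all 3 antibodies.

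The 8 genes of calcium channel pores all held shared regions, 75 in all and 14 of them with all 3 antibodies. Cacna1c, which encodes the L-type pore Cav1.2, led with 31 shared regions, 25 of them inside its 609.0 kb gene and 11 in intron 3. Its 7 regions of all 3 antibodies all lay in introns, and 5 of its other shared regions lay upstream, 4 of them inside Dcp1b or Cacna2d4. The highest, 229081 bp from the TSS in intron 3, scored 2414 with ab1, 774 with ab2 and 107 with ab3. A pair of regions in intron 6 stood 1707 bp apart, at 1824, 613 and 71.9 for the farther from the TSS and 1577, 691 and 93.8 for the nearer. In intron 1, a region with 4 extended E-boxes scored 1900, 561 and 51.0. Of the 31 regions, 1 had the TSS of the longest Cacna1c transcript as its closest protein-coding TSS. With 1 TSS per gene, assignment by nearest TSS would therefore give nearly all of them to Ankrd26, Dcp1b or Cacna2d4. Cacna1c has 14 annotated TSSs, however, and the pair in intron 6 lay 3713 and 2006 bp from the nearest of these.

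Cacna1d, which encodes the other L-type pore of neurons, Cav1.3, held 11 shared regions and none with ab3. The highest, in the downstream flank inside Chdh, scored 754 with ab1 and 289 with ab2. For none of the 11 was the TSS of the longest Cacna1d transcript the closest protein-coding TSS. Of them, 1 lay 15 bp from the TSS of Chdh, and another, in intron 1, lay 23 bp from the TSS of Dcp1a. A different region in intron 1 lay 510 bp from another annotated TSS of Cacna1d, which was not counted here. Of the pores of presynaptic calcium channels, Cacna1a (P/Q type) held 7 shared regions and Cacna1b (N type) held 3. The highest Cacna1a region, in intron 43, scored 1489 with ab1, 919 with ab2 and 119.9 with ab3. The highest Cacna1b region lay 548 bp from the TSS and scored 269 with ab1 and 137 with ab2. Cacna1e, of the R type, held 8, of which 5 lay in intron 1 and 3 had all 3 antibodies. Its highest region, 24591 bp upstream, scored 1085 with ab1, 854 with ab2 and 95.01 with ab3.

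The low-voltage T-type pores differed in number. Cacna1g held 9 shared regions, 3 of them with all 3 antibodies, and the highest, in intron 24, scored 1495 with ab1, 687 with ab2 and 186 with ab3. Cacna1h held 1, at 69.7 with ab1 and 69.2 with ab2, near the lowest score kept. Cacna1i held 5, all upstream of its 111.0 kb gene, and the highest of them (576 with ab1 and 311 with ab2) lay 228 bp from the TSS of Atf4.

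The 3 alpha2delta genes, whose products bring calcium channels to the membrane and the presynaptic terminal, had 15 to 18 shared regions each. All 3 had regions of all 3 antibodies, 6 in Cacna2d3, 3 in Cacna2d1 and 3 in Cacna2d2. Together they held 50 of the 220 shared regions. In Cacna2d2, 7 shared regions lay in intron 2, the highest of them being the top region of all the channel loci. A second region of high score, in intron 3, reached 2141 with ab1, 881 with ab2 and 157.5 with ab3.

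In Cacna2d3, which spans 816.9 kb, the regions with all 3 antibodies lay far from the start, in introns 13 to 32. The highest, in intron 31, scored 3100 with ab1, 1383 with ab2 and 276 with ab3, and 3730 bp away in intron 32 another scored 1385, 908 and 187. Of the 18 shared regions of Cacna2d3, 4 were closest to its own TSS and the other 14 to that of Lrtm1, a gene within the span of Cacna2d3. Cacna2d1 was the reverse, with 15 of 17 closest to its own TSS. Its highest region, in intron 6, scored 852 with ab1, 734 with ab2 and 68.3 with ab3. Its region in intron 2 at 719 with ab1, 119.9 with ab2 and 144.7 with ab3 was the only one of the 49 in which ab3 scored above ab2.

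Among the 14 potassium channel genes, 13 held shared regions, 73 in all and 21 with all 3 antibodies. The Kv4 genes, which encode pores of the transient A-type current, were unequal. Kcnd3 (Kv4.3) held 17, of which 14 lay in intron 2, and Kcnd2 (Kv4.2) held 3 over a gene of 514.3 kb. The highest Kcnd3 region scored 1606 with ab1, 823 with ab2 and 96.3 with ab3, but lay downstream of the gene, 508 bp from the TSS of Inka2. Inside Kcnd3 the highest was at 1478, 894 and 88.1, 164893 bp from the TSS. The highest Kcnd2 region, in intron 1, scored 919, 551 and 111.2.

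The Kv7 genes encode pores of the M current, which restrains repetitive firing. Kcnq3 held 8 shared regions, 4 with all 3 antibodies, and besides the top region printed above it held a region in intron 1, 171232 bp from the TSS, at 1417 with ab1, 787 with ab2 and 128.8 with ab3. A region 27777 bp upstream of Kcnq3 scored 1327, 685 and 85.4. Kcnq5 held 5, and its highest, in intron 1, reached 1286 with ab1 and 1115 with ab2 without an ab3 peak.

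Of the Kcnh genes, Kcnh5 (of the EAG group) held 6 shared regions, 3 with all 3 antibodies. One stood 2377 bp upstream of its TSS, at 2670 with ab1, 1035 with ab2 and 191 with ab3. It was the only region of all 3 antibodies within 10 kb of the TSS of its channel gene's longest transcript. When any annotated TSS was counted, others lay nearer, as given below. A Kcnh5 region 328176 bp from the TSS, downstream of the gene, was nearly as high at 1916, 1494 and 228. Kcnh1 (EAG group) held 6, with the highest in intron 7 at 1112, 456 and 102.6. Kcnh7 (ERG group) held 5 and none with ab3, and its highest, in intron 6, scored 982 with ab1 and 252 with ab2.

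The Kv3 genes serve fast spiking. Kcnc4 (Kv3.4) held 6 shared regions with none inside its 21.2 kb gene. Its 5 upstream regions lay inside the neighbouring gene Slc6a17, and the highest scored 2652 with ab1, 1128 with ab2 and 149.5 with ab3. Kcnc2 (Kv3.2) held 2 in intron 2, the higher at 772, 672 and 59.6, and Kcnc1 (Kv3.1) held 2, the higher at 209 with ab1 and 70.4 with ab2. Kcnb2 (Kv2.2, a delayed rectifier) held 5, the highest in intron 2 at 2106 with ab1, 956 with ab2 and 120.7 with ab3.

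The Kv1 genes have small spans of 4.4 to 13.4 kb, and all their shared regions but 1, at the promoter of Kcna1, lay more than 20 kb from the TSS. Kcna1 (Kv1.1) held 4, and its highest, 50282 bp after the TSS, scored 1033 with ab1, 573 with ab2 and 62.6 with ab3. Kcna2 (Kv1.2) held 4, the highest at 245 with ab1 and 132 with ab2, and only 1 of them was closest to the Kcna2 TSS. Kcna4 (Kv1.4) held no shared region, and its locus had 1 ab1 peak with a score of 140.9, 207 bp after the TSS.

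The 3 HCN genes held 8 shared regions. Hcn4 held 5, with the highest in intron 1 at 1171 with ab1, 443 with ab2 and 159.9 with ab3. Hcn3 held 1, at 115 bp from its TSS, with 122.9 for ab1 and 155.3 for ab2. Hcn2 held 2 upstream, and these lay 22 bp from the TSS of Tpgs1 and 110 bp from that of Cdc34. In Hcn2 and Hcn3 all 3 shared regions scored higher with ab2 than with ab1. Over all 220 shared regions, ab1 scored higher than ab2 in 187.

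**Figure D3:**
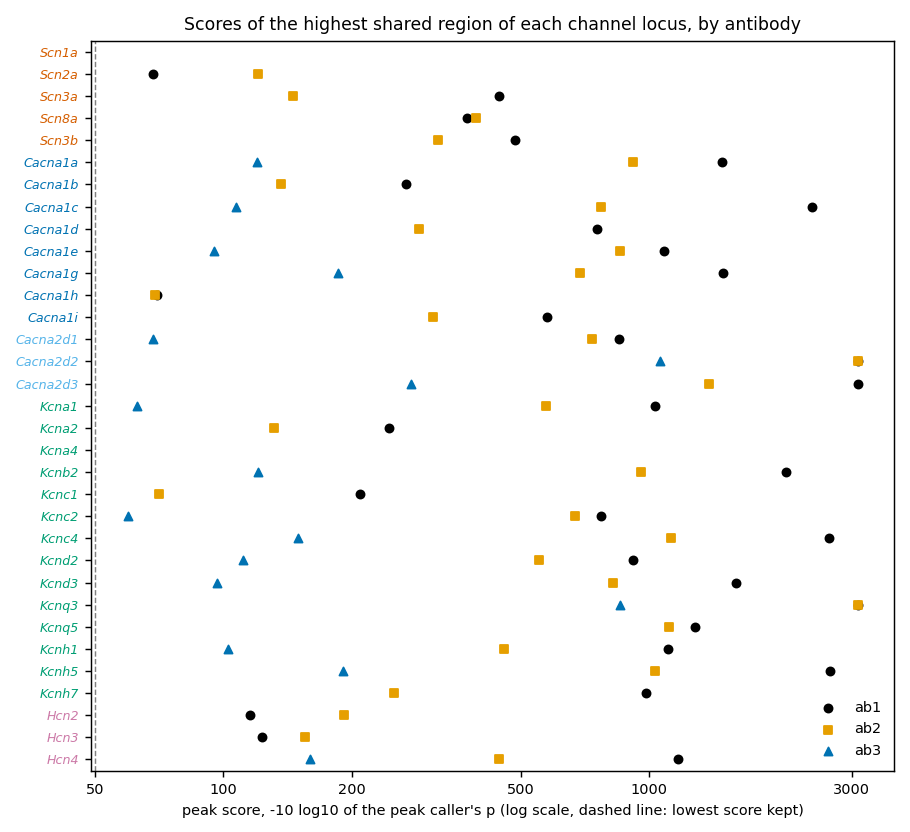
Peak scores (horizontal axis, log scale) of the shared region with the largest summed score in each channel locus, for ab1, ab2 and ab3. In 17 of the 31 loci this region had all 3 antibodies, and the Cacna2d2 and Kcnq3 regions stood at 3100 for both ab1 and ab2.

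Peak scores of the antibodies went together across the shared regions of the channel loci. For the pair of ab1 and ab2, Pearson's r of the log10 of the scores reached 0.8709 (n = 220 regions). It was 0.676 for ab1 and ab3 (n = 49) and 0.6734 for ab2 and ab3 (n = 49). Spearman's rho was 0.8365, 0.6989 and 0.6219. Over all shared regions of the genome, r was 0.8853, 0.6828 and 0.7692. The regions were required to pass in both lists, and ab2 and ab3 share a background library. The median score fell from 285.5 for ab1 to 148.4 for ab2 and 88.19 for ab3, near the 277.7, 140.2 and 90.46 of all shared regions.

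Most shared regions of the channel loci lay within the channel gene. Of the 220 shared regions, 154 (70.0%, 95% interval 63.64 to 75.67) lay inside the channel gene, beside 36.19% over all protein-coding loci, whose genes are shorter. Introns held 147 (66.82%), intron 1 alone 34, 5'UTR exons 5 and coding exons 2. The coding exons were exon 43 of Cacna1b and exon 21 of Cacna1c. The upstream flanks held 45 and the downstream flanks 21. By antibody, 65.01% of ab1 peaks, 67.08% of ab2 peaks and 72.55% of ab3 peaks lay in introns, a mean of 68.21% ± 3.896 (SD, n = 3 antibodies).

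From the gene's own TSS, 11 shared regions lay within 1 kb, 10 at 1 to 10 kb, 59 at 10 to 50 kb and 140 (63.64%) beyond 50 kb. Measured from the closest protein-coding TSS of any gene, 9.091% lay within 1 kb and 50.91% beyond 50 kb, beside 12.72% and 51.17% of all shared regions. With only the TSS of each gene's longest transcript counted, the channel TSS was the closest protein-coding TSS for 112 regions (50.91%, interval 44.34 to 57.44). Inside another protein-coding gene lay 25 regions. Within 1 kb of another gene's TSS there were 9 shared regions, in the loci of Cacna1c, Cacna1d, Cacna1g, Cacna1i, Cacna2d2, Hcn2 and Kcnd3. Neighbouring shared regions of a locus stood a median of 16730 bp apart, with 33 of 189 gaps at 5000 bp or less.

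**Figure D4:**
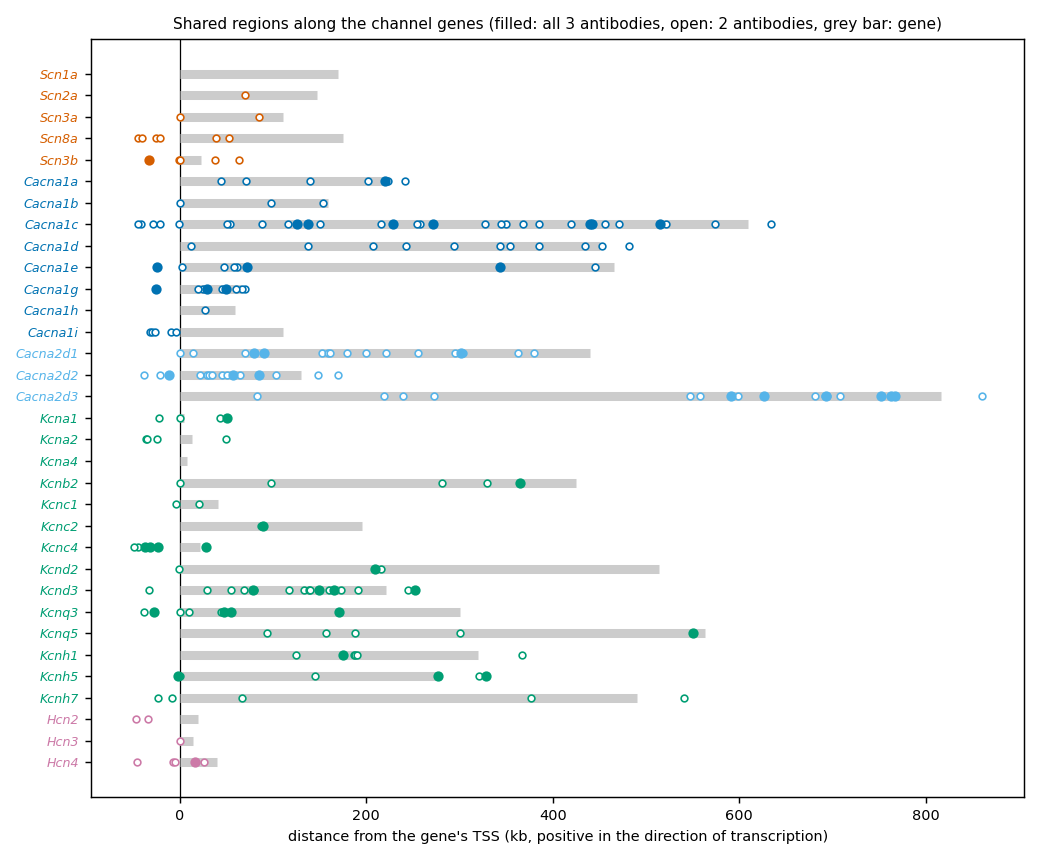
Shared regions of each channel gene by distance from its TSS in kb (horizontal axis, positive in the direction of transcription), with the gene as a grey bar, regions of all 3 antibodies filled and those of 2 open. The filled points lie away from the line at 0 except for the Kcnh5 region 2377 bp upstream.

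Binding at the promoters was found for 11 of the 33 genes, counting a shared region with its midpoint within 1 kb of the TSS, beside 20.8% of all protein-coding genes. They were Scn3a, Scn3b, Cacna1b, Cacna1c, Cacna2d1, Kcna1, Kcnb2, Kcnd2, Kcnq3, Kcnh5 and Hcn3. None held an ab3 peak within 1 kb of this TSS, which is that of the longest transcript, and 1.609% of all protein-coding genes had a region of all 3 antibodies there. Peaks of ab1 lay within 1 kb of the TSS in 23 genes, beside 35.3% of all protein-coding genes, and peaks of ab2 in 11, beside 22.7%. By length, 5 of 11 channel genes over 300 kb, 3 of 11 between 100 and 300 kb, 1 of 6 between 20 and 100 kb and 2 of 5 under 20 kb had a bound promoter, beside 34.06%, 32.09%, 24.82% and 15.75% of protein-coding genes.

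The strongest bound promoters were those of Kcnq3 (891 with ab1 and 280.4 with ab2, 241 bp after the TSS) and Kcnh5 (501 and 158, 273 bp after it). Next in summed score came Cacna1b, then Cacna2d1 98 bp upstream (142.6 and 195.7), Kcna1 240 bp upstream (223 and 90.2) and Hcn3. Scn3b scored 170.4 and 99.3, and Kcnb2, 7 bp from the TSS, scored 206 and 51.2. The lowest were Kcnd2 (86.0 and 69.3), Scn3a and Cacna1c (56.2 and 70.4, 727 bp upstream, inside Dcp1b). When any annotated TSS of the gene was counted, Cacna1a, Cacna1d, Cacna1e, Cacna1g and Cacna2d3 were added, making 16 genes, beside 24.73% of all protein-coding genes. Counted this way, 3 regions of all 3 antibodies lay within 1 kb of a start: in Cacna2d3, 5 bp from a TSS (80.8 with ab3), in Cacna1g, 88 bp from a TSS (186 with ab3), and in Cacna2d1, 833 bp from a TSS (72.3 with ab3).

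Sequence at the bound promoters is given for the 6 whose central 100 bases overlap no annotated untranslated exon, to set beside the distal windows above. They are on the plus strand of GRCm38, with the extended E-box in capitals.
Scn3a, in chr2:65566696-65567275: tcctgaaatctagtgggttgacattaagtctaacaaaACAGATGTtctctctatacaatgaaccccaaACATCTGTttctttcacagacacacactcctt
Cacna1b, in chr2:24761587-24763620: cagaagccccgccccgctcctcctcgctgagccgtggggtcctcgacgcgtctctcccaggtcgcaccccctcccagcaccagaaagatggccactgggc
Cacna1c, in chr6:119196494-119197421: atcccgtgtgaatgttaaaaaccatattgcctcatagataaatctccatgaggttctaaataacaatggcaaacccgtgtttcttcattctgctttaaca
Cacna2d1, in chr5:15933585-15935601: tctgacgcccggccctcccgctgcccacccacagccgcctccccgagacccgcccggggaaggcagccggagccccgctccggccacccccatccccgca
Kcna1, in chr6:126643931-126646140: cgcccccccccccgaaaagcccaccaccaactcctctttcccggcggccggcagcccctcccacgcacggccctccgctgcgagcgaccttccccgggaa
Kcnd2, in chr6:21214396-21215971: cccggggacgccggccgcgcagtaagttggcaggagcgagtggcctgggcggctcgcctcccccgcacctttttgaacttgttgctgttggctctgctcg
Of these windows, only that of Scn3a held the element, in 2 copies. Over the 11 bound channel promoters, 3 (27.27%, interval 9.746 to 56.56) held an extended E-box in the central 200 bp. In the RefSeq promoter sequences of GRCm38.p6, which run from before to just after the start, 24 of the 33 genes had an entry, and 8 of the 24 held the element in at least 1 of their promoters. It was present in 36.36% of the promoters of these genes and in 26.29% of all 32851 promoters.

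To weigh all regions near a start together, each shared region was given to its closest protein-coding TSS with a weight that fell off exponentially over 5000 bp. The summed weight exceeded the genome-wide threshold of mean plus 1 SD, 1.082, for Scn3b (1.771), Kcnh5 (1.569) and Kcnq3 (1.111), beside 4.24% of all protein-coding genes. Cacna2d1 (1.039) lay just below it. Cacna1c, with the most shared regions, had a weight of 0.865, since only 1 of them was closest to the TSS of its longest transcript, and Cacna2d3 had 0.0. Other annotated TSSs of a gene carried no weight: within 1 kb of any of them, Cacna1c had 3 shared regions and Cacna2d3 had 1.

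E-boxes were frequent at the centre of the shared regions. Within 100 bp of the midpoint, on either side, 142 of the 220 held the extended form (64.55%, interval 58.02 to 70.57), beside 59.64% over all shared regions. In windows of 200 bp that began 1000 bp beyond the left and right ends of the region, it was present in 21.82% and 22.73%. The study found this form by a motif search in these same NEUROD2 peak regions, so its excess over the flanking windows is not independent evidence. By antibody, with each peak taken by itself before merging, 60.06% of ab1 peaks, 62.08% of ab2 peaks and 74.51% of ab3 peaks held the extended form. The mean was 65.55% ± 7.825 (SD, n = 3 antibodies). In merged regions with a peak of ab1, ab2 or ab3, the shares were closer together, at 62.08%, 63.6% and 64.0%. Regions of all 3 antibodies (65.31%, 32 of 49) and regions of ab1 and ab2 only (64.33%, 110 of 171) differed by less than their intervals, and regions of 1 antibody held it in 57.05% (89 of 156).

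The share was lower near starts. Within 1 kb of a protein-coding TSS, 4 of 20 channel regions (20%, interval 8.066 to 41.6) held it, and beyond that distance 138 of 200 (69%, interval 62.28 to 75.0). Over all shared regions the figures were 20.82% and 65.3%. The median GC content of the central 200 bp was 62.75% near starts and 50.5% elsewhere, and its part in the difference was not tested.

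By family, the element was present in 12 of 14 shared regions of sodium channel loci, 46 of 75 of calcium pore loci, 30 of 50 of alpha2delta loci, 51 of 73 of potassium channel loci and 3 of 8 of HCN loci. The intervals of all families overlapped. Among the E-box forms, CAGATG was at the centre of 50.45% of the regions, 3.127 times its share in the flanking windows, beside 43.09% and 2.748 times over all shared regions. CAGCTG was in 28.64% (3.0 times), beside 28.1% (3.129 times). CATATG was in 14.55% (2.909 times), beside 11.68% (2.1 times). The other 7 forms stood between 0.8889 and 1.385 times their flanking share, with CACCTG, present in 20.45%, the highest of them. Where an extended E-box was present, the one nearest to the midpoint lay a median of 35 bp from it, and in 96 of 142 regions it lay within 50 bp. In 58 regions there were 2 or more, and in 10 there were 3 or more.

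**Figure D5:**
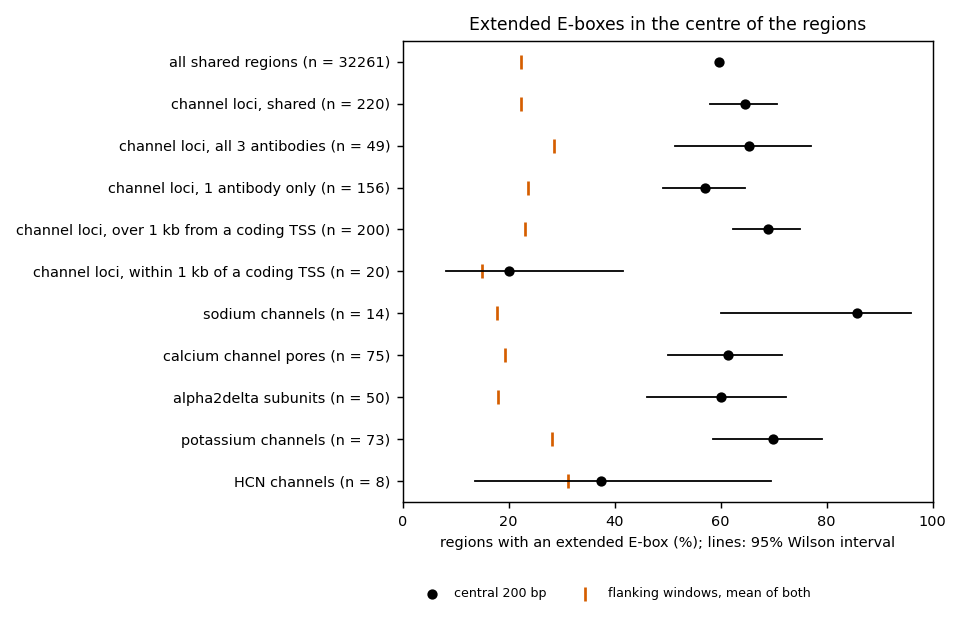
Percent of regions with an extended E-box in the central 200 bp (points, with 95% Wilson intervals of counting error), beside the mean of both flanking windows (orange ticks). Channel loci stood at 64.55%, and the 20 regions within 1 kb of a protein-coding TSS stood at 20%.

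The other channel genes and their auxiliary subunits, 64 in a list made by name, are shorter, with a median span of 31.4 kb. Of these, 53 held a shared region, 29 a region of all 3 antibodies and 12 a shared region at the promoter, beside the 67.6%, 26.7% and 20.8% of all protein-coding genes given above, so that their share of bound promoters was near the background. Their median density was 1.545 shared regions per 100 kb. Bound promoters included those of Scn11a, Kcna6, Kcnf1, Kcng1, Kcnh2, Kcnh3, Kcnab2, Kcnab3, Kcnip2, Kcnip3 and Dpp10. Among the 64 loci, Kcnab3 had the highest density, at 7.492, and Kcnab3 encodes a cytoplasmic beta subunit of Kv1 channels. Scn7a and Kcns1 had no region at all, and 5 of the 64 loci overlap a locus of the 33.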

How the data were processed

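Per the study's methods, the authors mapped single-end reads to mm10 with Bowtie, removed duplicates and multiply mapped reads, and ran MACS on every NEUROD2 library, with the GFP precipitation of the same antibody host as control. The deposited files are 1 peak list per antibody with a peak score, the log10 of the MACS p-value multiplied by -10, and were used as deposited. The lists hold no read depth, and the read numbers that the study gives for its libraries were not used here, so peak numbers (7470 to 51841) were not scaled by depth. Only peaks on the assembled nuclear chromosomes entered, and no sample column was left out.

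Peaks with a midpoint in the span of the longest transcript of a gene (GENCODE M21) or within 50 kb of it were merged where they overlapped by at least 1 bp. All 21938 protein-coding genes were treated alike for background. Percentiles are ranks of the summed highest score of the antibodies among all shared regions. The TSS is that of the longest transcript. Sequence was read from GRCm38.p6 with pysam 0.24.0, and tables were made with Python 3.11.15, numpy 2.4.6 and pandas 2.3.3. Merging, placing and motif search were tested on simulated peaks and sequence. No test was run, since there is 1 library per antibody and 1 condition. All 33 genes are named, with the highest region of each gene and family and every shared region at a promoter. Promoter windows that overlap an annotated untranslated exon are not printed, and the 60-base windows of Kcnq3 and Hcn4 were chosen after their values were seen. The members and the list of other channel genes were chosen with earlier results of these data known. Alternatives on antibodies, score, overlap, flank, TSS and motif window are given in the closing section. An item withheld from the text is not reported here.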

Additional observations from a re-analysis of the deposited data

How the results depend on the processing

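No paired analysis was possible because the GFP libraries enter only as the background of the peak caller and no test between groups was run. Leaving out 1 antibody in turn gave 49 to 220 shared regions, 19 to 31 loci with a region of all remaining antibodies, 0 to 11 bound promoters, 66.82% to 73.47% of regions in introns and 1 to 3 genes above the TSS weight threshold, with the low counts without ab1 or without ab2. When all 3 antibodies were required, 49 regions remained, 73.47% of them in introns, with 0 bound promoters, 1 gene above the weight threshold and a median of 0.1904 regions per 100 kb (0.0 over all protein-coding genes). With scores of at least 100 there were 135 shared regions, 71.11% in introns, 5 bound promoters and a median of 0.8839 per 100 kb (0.6197 over all protein-coding genes). Leaving out regions closest to the TSS of another protein-coding gene left 112 shared regions and a median of 0.8815 per 100 kb (0.0 over all protein-coding genes, each with the regions closest to its own TSS), and counting regions of 1 antibody gave 376. The share with an E-box was 42.27% in the central 100 bp and 90.45% in whole regions, and 85.91% held any CANNTG, since a longer window or a looser form holds more matches. The number of genes above the weight threshold was 7 with a decay length of 1000 bp, 7 with 50000 bp and 5 when the TSSs of all annotated genes competed. Under the stricter overlap of peaks, shorter flanks and the other TSS definitions, these totals over the loci stayed within 1.5 times of those reported, but counts of single genes did not: without flanks, 9 of 33 genes kept their number of shared regions, and Kcnc4, Cacna1i, Kcna1, Kcna2 and Hcn2 had 0. Loci with a shared region numbered 26 of 33 without flanks and 28 with scores of at least 100, beside 30.7% and 54.8% of all protein-coding genes. The ab3 list is the shortest, so the lack of an ab3 peak is not evidence that a region was unbound.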
